A study of Mus musculus with 6 samples.

Results

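Thrombin and the protease-activated receptors are represented here by 5 genes: F2, which encodes prothrombin, and F2r, F2rl1, F2rl2 and F2rl3, which encode the receptors PAR1, PAR2, PAR3 and PAR4. They were chosen by name, through the RefSeq transcript that the array files give for each probe, and each of the 5 was represented by 1 probe. Of these, 4 were tested among 32426 genes and unnamed probes that were well above background on at least 3 arrays; F2rl3 was not. RNA came from whole lungs of 6 male C57BL6 mice aged 10 weeks. All 6 had been starved for 16 h, had then received lipopolysaccharide (LPS, the bacterial endotoxin) at 20 mg/kg into the peritoneum, and were sampled at 30 h. In the antithrombin group 3 mice were given recombinant antithrombin, a plasma protein that inactivates thrombin, at 750 IU/kg at 3 h and 24 h, and in the saline group 3 mice were given saline. Each label names a separate mouse, hybridised to its own one-colour Agilent array, so n counts mice. No mouse without LPS was analysed here, so all values compare antithrombin with saline under endotoxin.

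Thrombin is made from prothrombin, a zymogen secreted mainly by the liver, when the coagulation cascade is set off by tissue factor. Besides cutting fibrinogen, it cuts the extracellular end of protease-activated receptors, and the new end of the receptor then acts as a tethered ligand that activates G proteins. PAR1, PAR3 and PAR4 are cut by thrombin, whereas PAR2 is cut mainly by trypsin-like proteases such as tryptase, matriptase and factor Xa. In the lung PAR1 is known on endothelial cells, fibroblasts and smooth muscle, and PAR2 on epithelium. Mouse platelets use PAR3 as a cofactor for PAR4, unlike human platelets. Antithrombin acts on the protease, and an array measures RNA, so thrombin activity, receptor cleavage and receptor protein were not measured.

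Values are log2 of the background-subtracted spot signal minus the 75th percentile of that array, so 0 is the level of the 75th percentile and a negative value is a dim spot. The levels of different probes are not compared with each other. The share of probes well above background was 69.8% to 72.1% per array, and the scanner flagged 0 spots as saturated. The lung markers Sftpc, the surfactant protein of alveolar type 2 cells, and Ager, a marker of type 1 cells, were well above background on all arrays, at 9.04 to 9.42 and 6.63 to 7.05. Saline mouse 2 stood apart from its group. On the first principal component of the tested genes, which held 51.9% of the variance, it lay at 7.86, between the other saline mice (-62.4 and -48.3) and the antithrombin mice (24.9 to 49.5). Without it, 3557 of 32131 genes passed the adjustment (11.1%), and many values are also given that way. Some values shown only with all 6 mice also moved by over 1.5 times or gained a call. Saline mouse 2 was picked from these same data, as the saline mouse nearest to the antithrombin mice. Leaving it out sets the groups further apart on that component, so calls made without it are a description and not independent support.

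No member passed the adjusted threshold of 0.05 in the limma fit across all genes, in which 2 of 32426 passed (0.00617%). At an unadjusted p under 0.05, 2 of the 4 tested members were lower after antithrombin, F2r and F2rl1, against 12.9% of all genes tested, and 0 were higher, against 8.74%. The groups did not overlap for 1 member, F2r, which was lower, where 18.1% of all genes tested were lower without overlap and 28.9% in either direction. Counts over 4 genes are given as a description. The median log2 difference was 0.08 over the 4 members and -0.05 over all genes tested. In direction the 4 tested members split evenly: F2r and F2rl1 had negative differences, and F2 and F2rl2 positive ones. Over all genes tested 18477 differences were negative and 13949 positive.

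**Figure D1:**
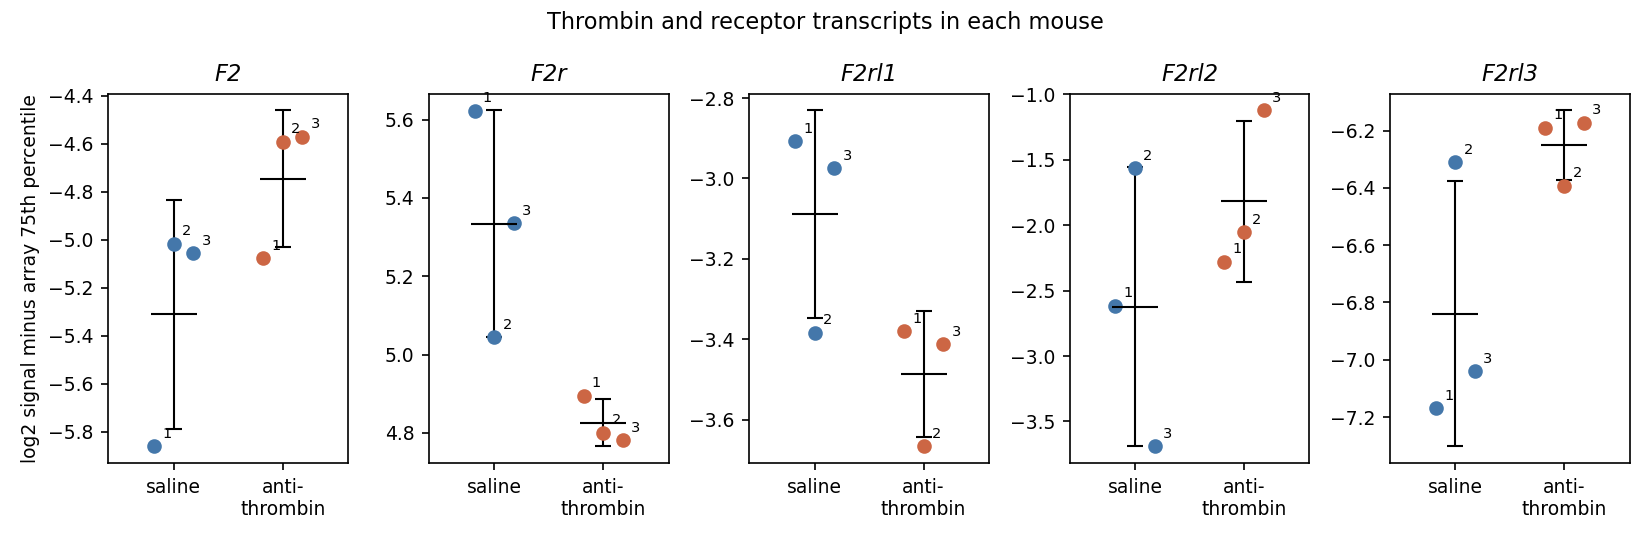
Log2 signal minus the array's 75th percentile (vertical axis, a separate scale for each gene) in each of 3 saline (blue) and 3 antithrombin (orange) mice, numbered by mouse, with the mean and SD in black. F2r is the gene whose antithrombin values, 4.78 to 4.89, all lie under the lowest saline value, 5.04, and F2rl2 has the widest saline spread, from -3.69 to -1.56.

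The sequence upstream of the start site is shown for the 3 tested members that have a RefSeq promoter entry. F2r and F2rl2 lie beside each other in the genome and differ in direction, and F2 encodes the precursor of thrombin. The bases are the 250 before the annotated start in RefSeq on GRCm38.p6, written 5′ to 3′ on the strand of the gene. Of the 5 members, 4 had an entry. Capitals mark matches on either strand to the GC box letters GGGCGG, the AP-1-like letters TGANTCA (N is any base) and the GATA letters AGATAA.
F2 (chr2:91636458-91636707, minus strand): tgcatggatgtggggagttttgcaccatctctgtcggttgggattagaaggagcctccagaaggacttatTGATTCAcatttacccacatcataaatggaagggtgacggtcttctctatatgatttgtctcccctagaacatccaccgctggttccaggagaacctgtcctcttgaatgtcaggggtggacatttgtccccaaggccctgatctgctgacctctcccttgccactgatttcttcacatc
F2r (chr13:95618467-95618716, minus strand): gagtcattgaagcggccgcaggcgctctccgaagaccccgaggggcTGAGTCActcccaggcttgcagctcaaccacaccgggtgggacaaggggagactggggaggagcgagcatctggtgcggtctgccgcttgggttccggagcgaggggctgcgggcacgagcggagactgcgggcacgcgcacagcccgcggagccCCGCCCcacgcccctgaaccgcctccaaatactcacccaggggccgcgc
F2rl2 (chr13:95696670-95696919, plus strand): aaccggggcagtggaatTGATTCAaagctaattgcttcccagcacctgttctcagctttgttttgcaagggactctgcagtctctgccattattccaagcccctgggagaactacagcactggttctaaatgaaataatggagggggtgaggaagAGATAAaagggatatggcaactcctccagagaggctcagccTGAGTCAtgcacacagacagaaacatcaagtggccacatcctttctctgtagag
The upstream sequence of F2r was rich in G and C, at 70.8%, with 24 CpG dinucleotides, while that of F2rl2 had 48.4% G and C and 1 CpG, and that of F2 49.2% and 3. The GC box letters, present in 32.7% of 32851 RefSeq promoters over the same length, were found in F2r alone among the 3. The AP-1-like letters were found in F2 and F2r once each and in F2rl2 at 2 places, with first bases at -233 and -54. Here -1 is the last base before the start, and 6.75% of promoters hold these letters. They take any base in the middle, where the AP-1 consensus has C or G. The F2 match and the F2rl2 match at -233 read TGATTCA, with T in the middle, and the other matches have G. The GATA letters, held by 9.99%, were found in F2rl2 and also in F2rl3, whose sequence is not printed because it was not tested. The TATA box letters TATAAA (12.4% of promoters), the CCAAT box letters CCAAT (33.8%) and a core motif of NF-kB (45.8%) were in none of the 4 windows. These are matches of letters in a window, and binding was not measured.

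F2, the prothrombin gene, was dim in these lungs, with unscaled spot intensities of 14.6, 23.1 and 21.2 in saline mice 1, 2 and 3 and of 25.2, 34.0 and 33.4 in antithrombin mice 1, 2 and 3. It was well above background on all 6 arrays. After scaling, the log2 levels were -5.86, -5.02 and -5.06 after saline and -5.08, -4.59 and -4.57 after antithrombin. Antithrombin mice 2 and 3 were above every saline mouse, and antithrombin mouse 1 lay just under saline mice 2 and 3, so the groups overlapped. The means were -5.31 ± 0.48 (SD, n = 3) and -4.75 ± 0.29 (SD, n = 3), a log2 difference of 0.57 (SE 0.26, 95% interval -0.06 to 1.19), or 1.48-fold higher after antithrombin. The difference did not pass (limma, adjusted p = 0.261), and it was 0.11 with normexp background correction and 0.29 without saline mouse 1.

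Markers of hepatocytes, the main known source of prothrombin, are given beside F2. Of the 10 hepatocyte genes listed, 3 (Apoa1, Ttr and Cps1) stayed near background on all 6 arrays. Of the 7 tested, 5 had negative differences, with a list median of -0.33. Leaving out saline mouse 2 gave a list median of -0.51, and 1 gene, Ambp, was called higher (limma). Alb, the albumin gene, stood between -6.20 and -4.50 in saline mice and between -6.26 and -5.33 in antithrombin mice, so its groups overlapped; its difference was -0.63, and -1.15 without saline mouse 2. The genes whose profile over the 6 arrays lay nearest to F2 were Cplx1, Spef2 and Col17a1, at root mean square distances of 0.09, 0.11 and 0.14 log2 after centring, where the spread of F2 itself was 0.43. These were the nearest of 16595 named genes detected on all arrays, and the distances are descriptions with no test.

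F2r, which encodes PAR1, the main thrombin receptor of endothelium and fibroblasts, was bright on all 6 arrays and lower in each antithrombin mouse than in any saline mouse. The unscaled intensities were 41704, 24635 and 28452 in saline mice 1, 2 and 3, and 25300, 22838 and 21873 in antithrombin mice 1, 2 and 3. On the scaled log2 axis these were 5.62, 5.04 and 5.34 against 4.89, 4.80 and 4.78. The antithrombin mice lay within 0.11 of each other, while the saline mice spanned 0.58, with saline mouse 2 nearest to the antithrombin group. Unscaled, saline mouse 2 was below antithrombin mouse 1, so the lack of overlap holds on the scaled values. The means were 5.33 ± 0.29 (SD, n = 3) and 4.83 ± 0.06 (SD, n = 3). The log2 difference was -0.51 (SE 0.16, 95% interval -0.89 to -0.12), or 1.42-fold lower, and did not pass over all genes (limma, unadjusted p = 0.0168, adjusted p = 0.173).

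Saline mouse 2 was the saline mouse nearest to the antithrombin group in F2r. Without it the F2r difference was -0.65 (SE 0.13) and passed (limma, adjusted p = 0.0379). At that setting 6.17% of all genes were called lower and 3557 were called in all. Weights per array, estimated from these same data, gave -0.65 (limma, adjusted p = 0.0437), where 4.49% of genes were called lower. That call is likewise a description and not independent support. Without saline mouse 1 the difference was -0.36. Over the 17 alternatives the sign was negative each time, with adjusted p-values between 0.0379 and 0.369.

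Endothelial markers stood beside F2r as follows. Of 12 endothelial genes, all well above background on all arrays, 10 had negative differences, with a median of -0.14, and 0 passed the adjustment (limma). At an unadjusted p under 0.05, 3 of the 12 were lower (limma), against 12.9% of all genes tested. The summed endothelial level ran from 8.06 to 8.27 in saline mice and from 7.87 to 8.16 in antithrombin mice. Erg, an endothelial transcription factor, differed by -0.55 (SE 0.14), and Robo4, a guidance receptor of endothelium, by -0.45 (SE 0.15), while Pecam1 differed by -0.06 (SE 0.14). Among 8 fibroblast genes 5 had positive differences, with a list median of 0.17. Col1a1, a collagen gene with the smallest p of the list, differed by 0.27 (SE 0.12), higher without overlap, and Tcf21 by 0.35 (SE 0.18). Pdgfra, the receptor that marks lung fibroblasts, had a negative difference. It stood at 5.06, 4.02 and 4.85 in saline mice and at 4.24, 4.24 and 4.02 in antithrombin mice, so its groups overlapped. The Pdgfra difference was -0.48, and -0.79 without saline mouse 2 (limma, adjusted p = 0.0311). Of 9 smooth muscle and pericyte genes 6 had positive differences, with a median of 0.52, and 0 passed the adjustment (limma). Before adjustment 5 of the 9 were higher and 0 lower at p under 0.05 (limma), against 8.74% and 12.9% of all genes tested. The groups did not overlap for 5 of the 9, all higher, against 28.9% of all genes tested in either direction. Cnn1, the calponin gene of smooth muscle, differed by 1.42 (SE 0.24). The summed level of this list was 5.78 to 5.84 after saline and 5.97 to 6.04 after antithrombin. Of the 9, 4 were called higher when saline mouse 2 was left out (limma), where 4.9% of all genes were. At that setting 0 of the 12 endothelial genes were called (limma), against 11.1% of all genes in either direction. In bulk lung RNA, fewer cells of a type and less RNA per cell cannot be told apart, and the part of cell makeup in the F2r difference was not tested. The profiles nearest to F2r were those of Cdip1, Zfp810 and Zfp521, each at a distance of 0.05 log2, where the spread of F2r was 0.31.

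F2rl1, which encodes the trypsin and tryptase receptor PAR2, was well above background on all 6 arrays. The log2 levels were -2.91, -3.38 and -2.97 in saline mice and -3.38, -3.67 and -3.41 in antithrombin mice. Saline mice 1 and 3 lay above every antithrombin mouse, and saline mouse 2 was level with antithrombin mouse 1, so the groups overlapped by that pair. The means were -3.09 ± 0.26 (SD, n = 3) and -3.49 ± 0.16 (SD, n = 3). The log2 difference was -0.40 (SE 0.16, 95% interval -0.79 to -0.01), or 1.32-fold lower after antithrombin, and did not pass (limma, unadjusted p = 0.0466, adjusted p = 0.226). It was -0.55 without saline mouse 2 (limma, adjusted p = 0.0538) and -0.26 with normexp background correction.

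PAR2 is known in airway and alveolar epithelium. Of 13 epithelial markers, all detected on all arrays, 10 had negative differences with a median of -0.10, and 0 passed the adjustment (limma). At an unadjusted p under 0.05, 3 of the 13 were lower (limma), against 12.9% of all genes tested. Hopx, a type 1 cell gene, differed by -0.52 (SE 0.12), and the keratins Krt8 and Krt18 by -0.43 (SE 0.13) and -0.36 (SE 0.14). These 3 were called lower without saline mouse 2 (limma, adjusted p = 0.0393 for Hopx, 0.0398 for Krt8 and 0.0433 for Krt18). At that setting 6.17% of all genes were called lower. Sftpc differed by -0.08 (SE 0.14) and Ager by -0.15 (SE 0.13). The summed epithelial level was 10.95 to 11.02 after saline and 10.81 to 11.04 after antithrombin. Whether epithelial makeup has a part in the F2rl1 difference was not tested. The profile nearest to F2rl1 was that of Spred1, an inhibitor of Ras signalling, at a distance of 0.03 log2, followed by Zfp354c and Trim65 at 0.05 each.

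F2rl2, which encodes PAR3, had the widest spread within groups of the 4 tested members. Its log2 levels were -2.61, -1.56 and -3.69 in saline mice 1, 2 and 3, a 4.37-fold range within the group. In antithrombin mice 1, 2 and 3 they were -2.28, -2.05 and -1.12. Saline mouse 2 was higher than antithrombin mice 1 and 2, so the groups overlapped, and saline mouse 3 was the lowest of all. The means were -2.62 ± 1.06 (SD, n = 3) and -1.82 ± 0.61 (SD, n = 3), with a log2 difference of 0.80 (SE 0.55, 95% interval -0.51 to 2.12), which did not pass (limma, adjusted p = 0.414). The value was 1.33 without saline mouse 2, 0.46 without antithrombin mouse 3 and 0.27 without saline mouse 3. All arrays lay on 1 slide in 2 rows. Between the 4 mice in the first row the difference was -0.08, and between the 2 mice in the second row it was 2.57, so it did not keep its sign within rows; F2r gave -0.49 and -0.55, F2rl1 -0.38 and -0.44, and F2 0.61 and 0.49.

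Platelet and megakaryocyte markers varied across the mice beside F2rl2. The mean of the 12 platelet genes, relative to the saline mean, was -0.50, 0.86 and -0.36 in saline mice 1, 2 and 3 and 0.51, 0.41 and 1.13 in antithrombin mice 1, 2 and 3. As with F2rl2, saline mouse 2 and antithrombin mouse 3 were the highest and saline mice 1 and 3 the lowest. This order was not particular to platelet genes. The list of genes that generate thrombin, described below, had it too. Its means were -0.15, 0.27 and -0.11 in saline mice 1, 2 and 3 and 0.23, 0.15 and 0.37 in antithrombin mice 1, 2 and 3. All 12 were well above background on all arrays, 11 had positive differences with a median of 0.76, and 0 passed (limma; 0 at an unadjusted p under 0.05). The median was 1.27 when saline mouse 2 was left out, and 5 of the 12 were then called higher (limma; 41.7%, against 11.1% of all genes called in either direction). The summed platelet level was 5.69 to 6.11 in saline mice and 5.90 to 6.04 in antithrombin mice. Gp1ba, the platelet receptor that binds both von Willebrand factor and thrombin, stood at -4.70, -1.67 and -4.56 after saline and at -2.18, -2.33 and -1.16 after antithrombin, a difference of 1.76, or 2.74 without saline mouse 2 (limma, adjusted p = 0.025). Pf4, an abundant platelet chemokine, differed by 0.21 (SE 0.15). The part of platelet content in the F2rl2 values was not tested.

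The profile nearest to F2rl2 was that of Gimap4, a GTPase gene of lymphocytes and endothelium, at a distance of 0.09 log2 where the spread of F2rl2 was 0.82. Next were Slfn5os at 0.14 and Egr2, an early growth response factor, at 0.24. In the reference annotation F2rl2 lies inside the span of Iqgap2, a scaffold protein gene, next to F2r and F2rl1. Iqgap2 had a mean of -3.77 ± 0.16 (SD, n = 3) after saline and -3.42 ± 0.24 (SD, n = 3) after antithrombin, without overlap (limma, log2 difference 0.35, SE 0.16, adjusted p = 0.25). F2rl2 and F2r are thus close in the genome and had differences of opposite sign, although the F2rl2 interval includes 0.

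**Figure D2:**
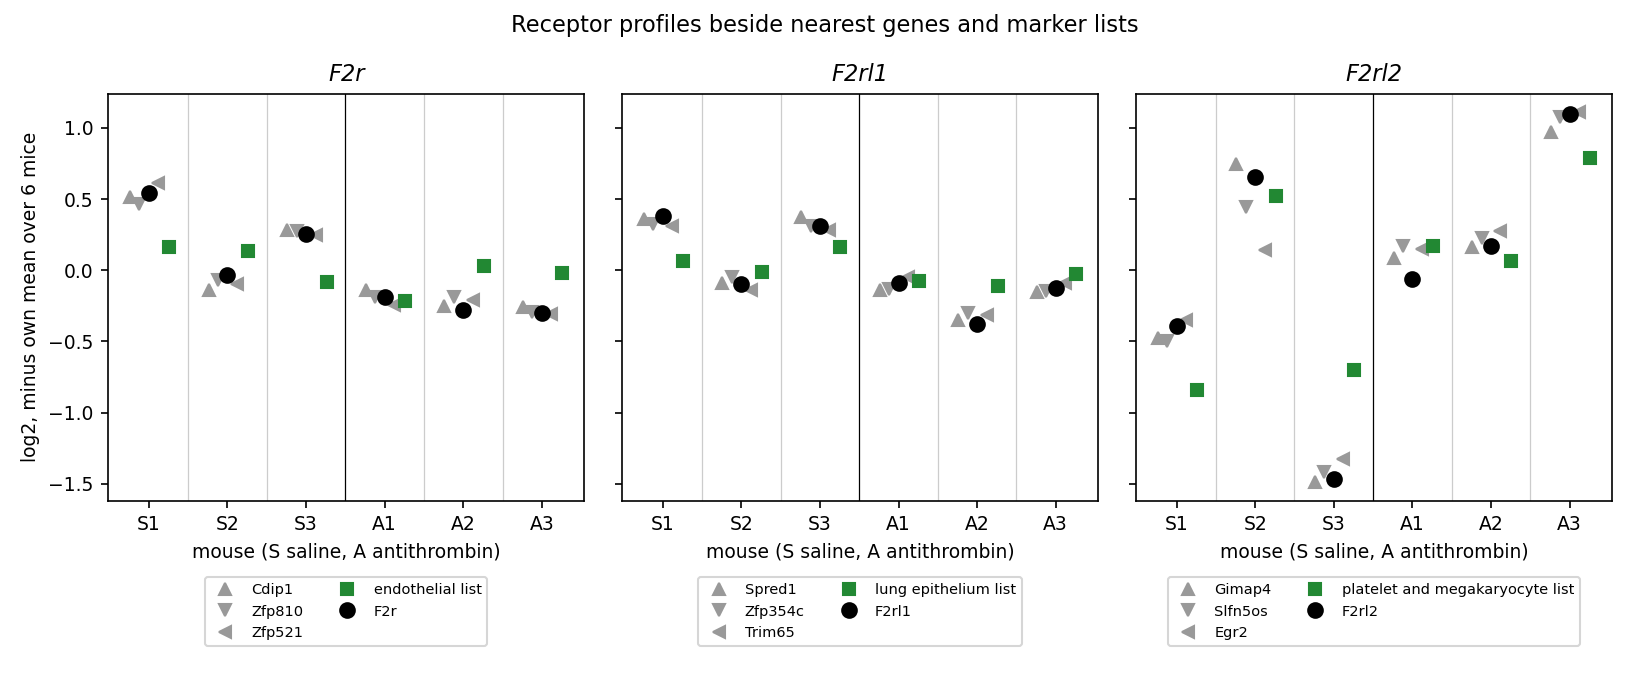
Log2 level of each receptor gene (black circles) in each mouse, less its mean over the 6 mice, beside its 3 nearest gene profiles (grey) and the mean of a marker list (green squares): endothelial for F2r, lung epithelium for F2rl1, platelet and megakaryocyte for F2rl2. A list mean averages over 12 or 13 genes, so its spread is not comparable with that of a single gene. The platelet list is high in saline mouse 2 and antithrombin mouse 3, as F2rl2 is. So is the list of genes that generate thrombin, which is not drawn here.

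F2rl3, which encodes PAR4, the signalling thrombin receptor of mouse platelets, was at the limit of detection. Of the 3 saline arrays 0 measured it well above background, and of the 3 antithrombin arrays 1 did, that of mouse 1. Unscaled intensities were 5.88, 9.40 and 5.36 after saline and ran from 9.75 to 11.6 after antithrombin. The log2 levels were -7.17, -6.31 and -7.04 against -6.19, -6.39 and -6.17, and saline mouse 2 was higher than antithrombin mouse 2. Because 5 of the 6 arrays did not measure it above background, no fold is given. With no filter on dim probes the difference of 0.59 did not pass (limma, adjusted p = 0.335), and with normexp background correction it was -0.030. A difference in PAR4 RNA was not detectable at this signal.

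**Figure D3:**
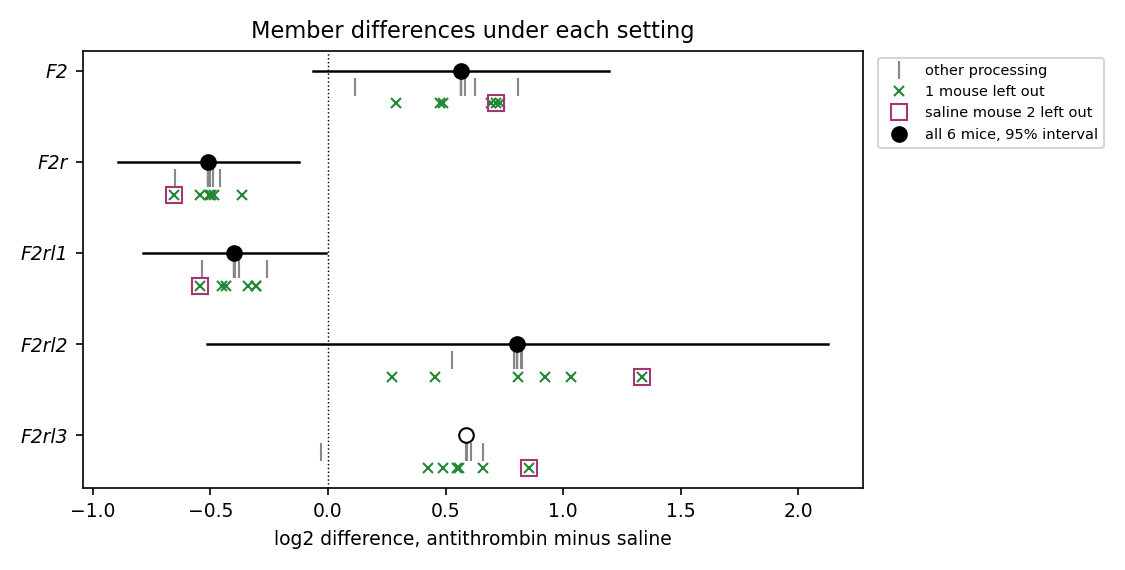
Log2 difference, antithrombin minus saline, for each member with all 6 mice (black circle, 95% interval as a line; the open circle marks F2rl3, which was not tested), under other processing (grey ticks), with 1 mouse left out (green crosses) and with saline mouse 2 left out (purple square). The plotted differences of F2r and F2rl1 lie below 0 at every setting and those of F2 and F2rl2 above 0. The 95% intervals of F2 and F2rl2 include 0. F2rl3 reaches -0.030 under normexp background correction.

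The genes around these receptors were read from 8 lists of 124 genes, of which 110 were tested. Over all 8 lists 0 genes passed the adjustment (limma; before adjustment 16 of 110 were higher and 10 lower at p under 0.05, where 8.74% and 12.9% of all genes were, and the smallest adjusted p was 0.15). The median difference was 0.06. Without saline mouse 2, 16 were called higher and 8 lower (limma), where 4.9% and 6.17% of all genes were. Among genes that generate thrombin, 7 of 9 were tested, 5 had positive differences, and the median was 0.34. Vkorc1, the vitamin K reductase needed to make functional prothrombin, differed by 0.56 (SE 0.15) without overlap between groups, and Ggcx, the carboxylase it serves, by 0.40 (SE 0.18). F5, the cofactor of prothrombin activation, differed by 0.82 (SE 0.44), and F3, the tissue factor gene, by -0.34 (SE 0.19), both with overlap. With saline mouse 2 left out the list median was 0.52, and 3 of the 7 were called (limma): F5 at 1.31 (adjusted p = 0.0401), Vkorc1 at 0.66 (adjusted p = 0.0473) and F3 at -0.54 (adjusted p = 0.0462).

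Genes whose products restrain thrombin had a median of -0.02 over the 8 tested of 10. Serpinc1, the mouse's own antithrombin gene, stood at -5.08, -4.82 and -4.87 in saline mice and at -5.40, -4.76 and -4.15 in antithrombin mice, and these overlapped. Thbd, which encodes thrombomodulin, differed by -0.02 (SE 0.12), and the protein C receptor gene Procr by -0.01 (SE 0.18). Serpine2, which encodes protease nexin-1, differed by -0.22 (SE 0.15). Serpind1, which encodes heparin cofactor II, differed by 0.93 (SE 0.39), with overlapping groups. Of 9 genes of other thrombin substrates 5 were tested, with a median of -0.02. F13a1, which encodes the fibrin cross-linking factor XIII subunit and is made by platelets and macrophages, differed by 0.78 (SE 0.24) without overlap. It was called at 1.05 without saline mouse 2 (limma, adjusted p = 0.026).

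Other proteases that cut these receptors showed a median of 0.01 over the 14 tested of 19. Prtn3, the neutrophil proteinase 3 gene, differed by 0.44 (SE 0.18), beside neutrophil markers of which 9 of 9 tested had positive differences with a median of 0.50 and a summed level of 9.64 to 9.99 after saline and 9.89 to 10.14 after antithrombin. The part of neutrophil content in that value was not tested. Prss8 and St14, the epithelial PAR2-activating proteases prostasin and matriptase, differed by -0.33 (SE 0.14) and -0.30 (SE 0.15), and the mast cell tryptase gene Tpsb2 by -0.17 (SE 0.19). Prss2, Tmprss11d, Mmp1a and Gzmk were close to background on all 6 arrays.

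Downstream of the receptors, the list of G proteins and effectors had a median of -0.02 over 23 genes. The G protein genes Gnaq and Gna13 differed by -0.11 (SE 0.12) and 0.06 (SE 0.11). Plcb2, the phospholipase C of blood cells, differed by 0.97 (SE 0.30), while Plcb4 differed by -0.51 (SE 0.18), the store calcium sensor Stim1 by -0.47 (SE 0.16) and the protein kinase C gene Prkca by -0.36 (SE 0.13). These 4 were called without saline mouse 2 (limma), Plcb2 higher and the others lower, where 11.1% of all genes were called in either direction. Among 19 genes of receptor desensitisation and trafficking the median was -0.03. The arrestin genes Arrb1 and Arrb2 differed by -0.25 (SE 0.12) and -0.24 (SE 0.16). Rgs16, which shortens G protein signals, differed by 0.82 (SE 0.21), and Arrdc3, Rab7 and Rab5a, of endosomal sorting, by -0.55 (SE 0.18), -0.36 (SE 0.11) and -0.36 (SE 0.11). In the list of receptor partners, with a median of -0.06 over 10 genes, Cav1, the caveolin of endothelial caveolae, differed by -0.59 (SE 0.19) without overlap, and the sphingosine kinase gene Sphk1 by -0.60 (SE 0.24). Without saline mouse 2 Cav1, Sphk1 and Arrdc3 were called lower (limma), while Rgs16, Rab7 and Rab5a were not called. At that setting 1 of the 19 desensitisation and trafficking genes was called higher and 1 lower (limma). Of the 10 partner genes 1 was called higher and 3 lower (limma). Over all genes 4.9% were called higher and 6.17% lower.

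Transcripts that thrombin is known to induce in endothelium had the highest median of the 8 lists, 0.43. Of 28 tested 22 had positive differences, and before adjustment 10 were higher and 1 lower at p under 0.05, against 8.74% and 12.9% of all genes tested, while 0 passed the adjustment (limma). The chemokine gene Ccl2 stood at 4.41, 4.79 and 4.42 in saline mice and at 5.95, 5.71 and 5.57 in antithrombin mice, without overlap. The endothelial selectin gene Sele differed by 1.30 (SE 0.24), the stress factor gene Atf3 by 1.37 (SE 0.36) and Cxcl2 by 0.67 (SE 0.18), each without overlap. Many of these genes are also induced by endotoxin and cytokines directly, and which stimulus acted was not tested. The mean of the list relative to the saline mean was -0.17, 0.34 and -0.17 in saline mice 1, 2 and 3 and 0.41, 0.35 and 0.65 in antithrombin mice. Without saline mouse 2, 9 were higher and 1 lower after adjustment (limma), where 4.9% of all genes were called higher and 6.17% lower. Ccl2, Sele and Atf3 were among the 9, and Cxcl2 was not. F2r had a negative difference, as had 6 of these 28 transcripts, among them Nr4a3, a nuclear receptor gene, at -0.48 (SE 0.16) without overlap, and the other 22 had positive ones.

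**Figure D4:**
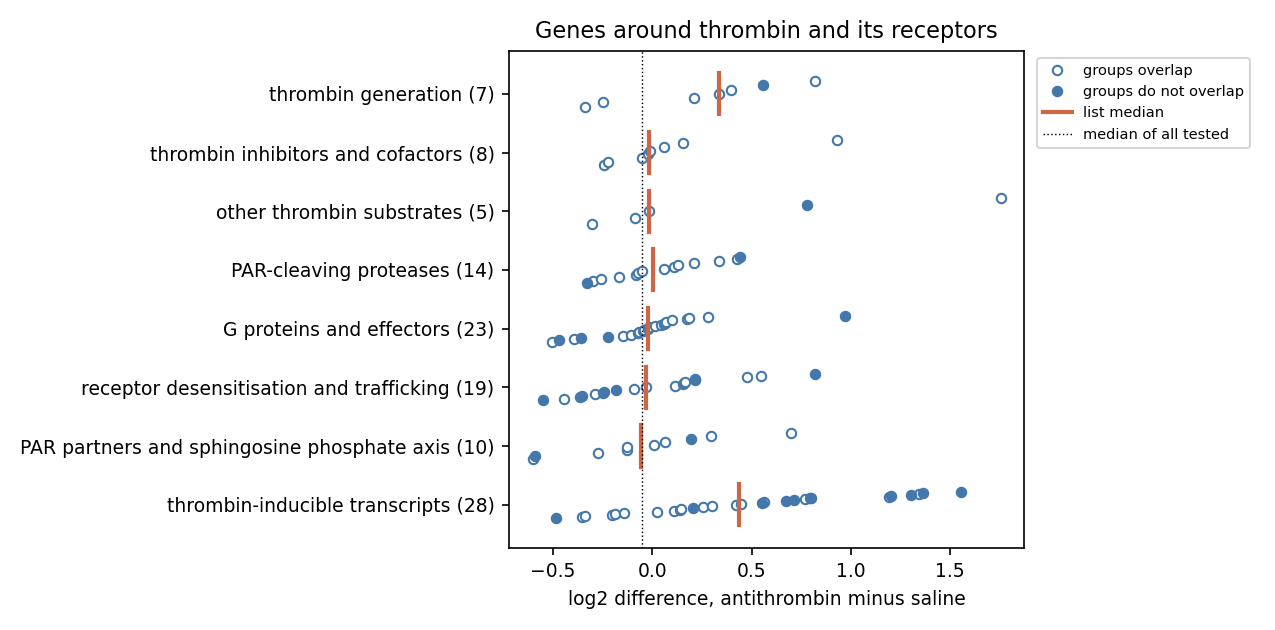
Log2 difference, antithrombin minus saline, of each tested gene in 8 lists (number tested in brackets), with filled points where the groups do not overlap, orange bars for list medians and a dotted line for the median of all genes tested. The medians of thrombin generation (0.34) and of thrombin-inducible transcripts (0.43) stand to the right, and the other 6 lie between -0.06 and 0.01.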

How the data were processed

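The deposited scanner files hold the spot intensity of each probe, made with Agilent Feature Extraction 10.7.3.1 per the file headers; the submitters' processing notes name version 9.1. The deposited value table holds log2 values and was used as an alternative; its column medians ran from -0.0372 to 0.077. It equals the log2 signal less a shift per array and a constant per probe within 0.01 log2, and its member differences lie within 0.01 of those after 75th percentile scaling; how the constant was chosen is unknown. Control spots and outlier spots were left out and spots of a probe averaged, giving 56605 probes, of which 32994 were named through RefSeq transcripts of GRCm38.p6. No gene coordinates from that annotation are printed except those of the promoters, because the array was designed on a different build. The brightest probe stood for each gene; 31 genes or probes with an outlier spot on any array were left out of the fit. After log2 and subtraction of each array's 75th percentile, differences were tested with lmFit and eBayes (limma 3.58.1, R 4.3.3, two-sided, Benjamini-Hochberg), and tested on simulated data for 32426 genes, where 55 of 100 genes changed 2-fold and 84 of 100 changed 4-fold were recovered and 7 unchanged genes were called. The number of arrays limits the precision, as does low signal for dim probes.

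The members, gene lists and the rule for named genes were chosen with earlier results of these data known. The rule took all members, up to 4 genes of smallest p per list, a fixed set of defining genes, the 3 nearest profiles per member and the 3 nearest genes on each side of each locus. Tpsb2 and the genes not detected are named outside that rule. One gene that the rule takes is not reported here. The alternatives were median scaling, quantile normalisation, normexp (median spot signal and median background, since no mean signal column was present, offset 50), no filter and a stricter filter, the mean of detected probes, the value table, weights per array, eBayes with trend and robust settings, a block for the mouse number or for the array row, and leaving out each mouse. Figures were drawn with matplotlib 3.10.9.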

Additional observations from a re-analysis of the deposited data

How the results depend on the processing

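The 2 genes past the adjusted threshold became 1 with median scaling, quantile normalisation, normexp, no filter, the stricter filter, a trended and robust variance or the array row as a block, and 2573 with array weights. Leaving out 1 mouse gave 0 to 3557, the highest without saline mouse 2. With the mouse number as a replicate block the count was 0 (limma; 5075 at an unadjusted p under 0.05). The values gave no sign that the numbers pair the mice. Deviations of same-numbered mice correlated at -0.01, -0.16 and -0.28 over tested genes, and no mouse correlated best with its own number. Deviations centred within groups of 3 mice cannot exclude a pairing. The block changed no member's side of the threshold.

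F2r was past the threshold in 2 of 17 alternatives, with array weights (-0.65) and without saline mouse 2. Both settings were drawn from these same data, so these 2 calls are not independent support. Leaving out 1 mouse gave F2r differences of -0.65 to -0.36. F2, F2rl1 and F2rl2 kept their sign and stayed short of the threshold in all 17. F2rl3, tested with no filter only, was -0.030 with normexp, and the cause was not tested. It was positive in the other 10 of its 11 alternatives, from 0.42 to 0.85 without 1 mouse. F2 and F2rl3 are dim, and an exact permutation test of 3 against 3 mice cannot go below 0.1.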

Other observations

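The genes beside the member loci were read as a set of 18, the 3 nearest protein-coding genes on each side of F2, of F2rl3 and of the F2r, F2rl1 and F2rl2 cluster. Of these 16 were tested and 0 passed the adjustment (limma). Before adjustment 1 was higher and 4 were lower at p under 0.05 (limma), against 8.74% and 12.9% of all genes tested. The groups did not overlap for 4 that were higher and 4 that were lower, against 28.9% of all genes tested in either direction. Beside F2rl3, Sin3b, a corepressor gene, differed by -0.38 (SE 0.15). Beside F2, Atg13, an autophagy gene, differed by -0.37 (SE 0.14) and Ckap5, a microtubule regulator gene, by 0.20 (SE 0.10). On the side of the cluster away from Iqgap2, S100z differed by -0.16 (SE 0.26) and Aggf1 by -0.13 (SE 0.11), both with overlapping groups.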
